A study of Mus musculus with 15 samples.

Results

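The genes described here were Gpnmb and 8 other genes that mark lipid-associated macrophages, namely Trem2, Cd9, Cd63, Lgals3, Mmp12, Fabp5, Itgax and Lpl. The 9 members were chosen by name from 55450 counted gene IDs, with their levels in Old and Adult livers already known. All 9 passed the filter on low counts, as did 15808 genes in all. Gpnmb and Mmp12 passed it through the older groups, since the Adult mice alone would not have met it. Messenger RNA of the liver was sequenced in 15 female C57BL/6 mice, 1 library per mouse and 5 mice per group, to ask how aging and a lipid mediator alter hepatic transcription. The Adult group (A1 to A5) was labelled 6 months old and the Old group (O1 to O5) 22 months old, and both received corn oil as vehicle by daily oral gavage. The PDX group (P1 to P5) was also labelled 22 months old and received protectin DX, a mediator derived from docosahexaenoic acid, in corn oil at 30 ng per g of body weight. Gavage lasted 9 weeks in the treatment protocol, whereas the series text gives 8 weeks. The labelled ages are those at the start of the study, and the livers were collected at its end, when the mice of all 3 groups were some months older. The mice carried no transgene in the labels, and treatment was not given to any Adult mouse, so an effect of PDX in Adult mice cannot be read from these groups.

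Lipid-associated macrophages are tissue macrophages that take up and break down lipid, in obese adipose tissue, in atherosclerotic plaques and in fatty or scarred liver. Their recognition receptor TREM2 binds lipids and lipoproteins and signals through the adaptor encoded by Tyrobp. Their other marker genes encode lysosomal and surface glycoproteins, tetraspanins, a galectin, a matrix protease and proteins that release or carry fatty acids. None of the 9 genes is confined to macrophages. Lpl, Cd9, Cd63 and Fabp5 are also transcribed in other liver cells, and in whole liver a change in the number of cells of a type and a change in RNA per cell cannot be told apart.

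Libraries held from 22424383 to 36070835 counted read pairs, and values below are CPM, in which a count is divided by its library's total and scaled with TMM factors. No pair of libraries was identical, and the Pearson correlation of log2 CPM between mice ran from 0.836 to 0.988. O2 and O5 stood apart from the other Old mice in the study's own description, and O2 had the largest TMM factor, 1.33. The members' means in Old livers and the counts of called genes in each list are therefore also given without both. The hepatocyte gene Alb was abundant in each library, from 34724 CPM in O5 to 180125 CPM in another Old mouse, with a mean of 111332 CPM in the Adult group. The labels gave no batch for a mouse, so no comparison within batches was made.

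Sequence upstream of 5 transcription starts is shown for the member with the largest difference between the groups, Gpnmb, for Mmp12, whose level followed that of Gpnmb most closely among the members, and for the receptor genes Itgax and Trem2. Each is the 250 bases before a start, 5′ to 3′ on the gene's strand, from RefSeq on GRCm38.p6, and capitals mark matches to the motifs searched.
Gpnmb: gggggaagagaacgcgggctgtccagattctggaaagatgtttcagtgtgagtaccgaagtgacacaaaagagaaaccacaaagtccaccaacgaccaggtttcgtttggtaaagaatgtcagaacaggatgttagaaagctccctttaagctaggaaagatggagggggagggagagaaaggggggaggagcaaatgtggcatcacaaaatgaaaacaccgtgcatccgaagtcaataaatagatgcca
Mmp12, first start: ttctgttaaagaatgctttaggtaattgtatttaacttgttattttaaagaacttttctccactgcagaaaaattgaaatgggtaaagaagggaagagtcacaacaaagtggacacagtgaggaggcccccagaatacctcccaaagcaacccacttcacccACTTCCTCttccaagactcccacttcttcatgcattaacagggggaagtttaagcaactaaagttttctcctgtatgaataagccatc
Mmp12, second start: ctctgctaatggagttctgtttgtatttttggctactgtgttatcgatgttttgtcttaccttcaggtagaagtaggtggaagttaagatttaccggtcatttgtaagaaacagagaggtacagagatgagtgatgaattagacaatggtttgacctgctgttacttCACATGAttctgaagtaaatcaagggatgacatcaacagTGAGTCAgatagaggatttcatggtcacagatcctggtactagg
Itgax: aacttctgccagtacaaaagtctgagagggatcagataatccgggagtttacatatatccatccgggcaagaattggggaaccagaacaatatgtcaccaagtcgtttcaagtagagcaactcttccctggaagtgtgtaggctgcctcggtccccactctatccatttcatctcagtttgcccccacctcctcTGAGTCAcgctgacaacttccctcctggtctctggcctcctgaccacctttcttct
Trem2: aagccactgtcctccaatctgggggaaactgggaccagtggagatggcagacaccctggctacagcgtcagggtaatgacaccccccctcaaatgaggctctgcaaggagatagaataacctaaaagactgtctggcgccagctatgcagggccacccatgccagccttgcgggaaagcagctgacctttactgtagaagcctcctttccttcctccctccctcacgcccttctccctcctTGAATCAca
The Gpnmb sequence lies at chr6:49036268-49036517 on the plus strand. Those of Mmp12 lie at chr9:7344147-7344396 and, inside the annotated gene, at chr9:7347124-7347373, both on the plus strand. The Itgax sequence lies at chr7:128129300-128129549 and the Trem2 sequence at chr17:48346151-48346400, again on the plus strand.

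Motifs were searched as exact letters on both strands, in 32851 upstream sequences of the same length. CACGTG and TCATGTG, letters bound by the MITF and TFE factors that drive lysosomal genes, were in 6.02% and 3.25% of all sequences. GAGGAAGT, a form of the site of the myeloid factor PU.1, was in 2.44%, and TGANTCA, the site of AP-1 factors, was in 6.75%. The table held 8 starts of 7 members, and Fabp5 and Lpl were not among them. TGANTCA was matched in Itgax from position -56 to -50, in Trem2 from -9 to -3 and in the second Mmp12 sequence from -44 to -38, where -1 is the last base before the start. The second Mmp12 sequence also held TCATGTG from -83 to -77, on the opposite strand, and the first held GAGGAAGT from -88 to -81, also on the opposite strand. The sequences of Gpnmb, Cd9, Cd63 and Lgals3 held none of the 4 motifs, which says only that these letters are not in these windows.

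**Figure D1:**
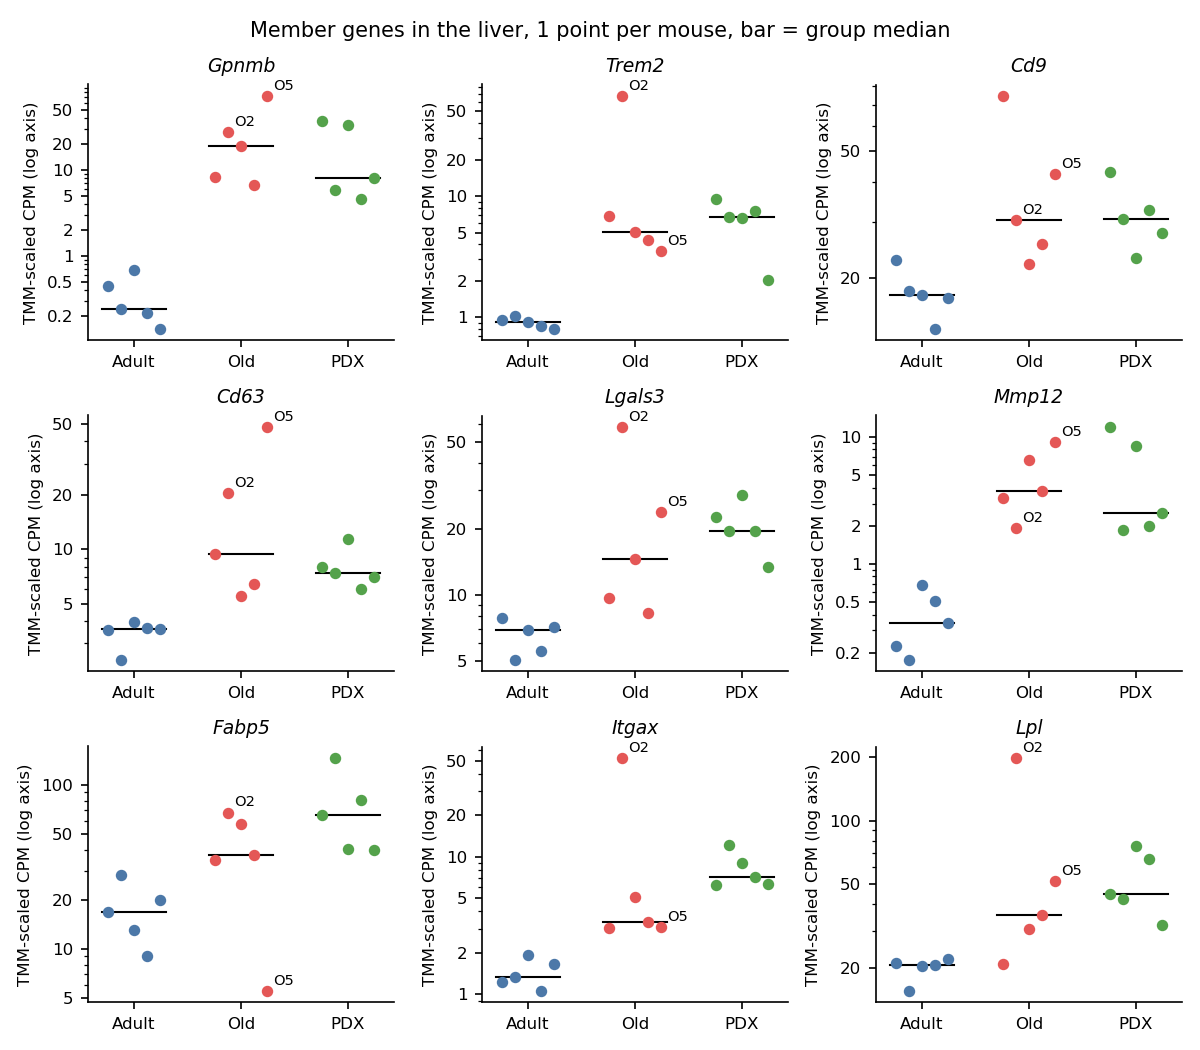
TMM-scaled CPM (log axis) of the 9 genes in the 5 Adult, 5 Old and 5 PDX livers. Each point is 1 mouse, the bar is the group median and O2 and O5 are named. All PDX points lie above all Adult points for each of the 9 genes, and O2 is far above the other Old mice for Trem2 and Itgax.

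Among the surface receptors, Gpnmb, which encodes a transmembrane glycoprotein of lysosomes and the cell surface, differed most between ages. The gene (ENSMUSG00000029816) lies on the plus strand of chromosome 6 from 49036546 to 49070929 (GRCm38). Gpnmb was at 0.450, 0.247, 0.684, 0.220 and 0.143 CPM in A1 to A5, from 5 to 16 counts per library. It was at 8.20, 27.3, 19.0, 6.69 and 71.7 CPM in O1 to O5 and at 37.3, 5.82, 33.4, 4.64 and 8.15 CPM in P1 to P5. Each older mouse thus lay well above each Adult mouse, and within both older groups the highest mouse was several-fold above the lowest. The Old mean was 76.2-fold the Adult mean, and 32.4-fold with O1, O3 and O4 alone. The PDX mean was 51.3-fold the Adult mean.

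Trem2, the lipid-sensing receptor itself (ENSMUSG00000023992), lies on the plus strand of chromosome 17 from 48346401 to 48354147. Its Adult levels were close together, at 0.956, 1.02, 0.912, 0.842 and 0.803 CPM in A1 to A5. In O1 to O5 they were 6.88, 66.9, 5.09, 4.35 and 3.50 CPM, and in P1 to P5 they were 9.43, 6.74, 6.56, 7.50 and 2.03 CPM. No older mouse reached down to the Adult range, and O2 was 7.10 times the next highest mouse, P1. The mean of Old was 19.1-fold that of Adult with all 5 mice and 6.00-fold without O2 and O5.

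Itgax, which encodes the integrin chain CD11c of dendritic cells and of some macrophages (ENSMUSG00000030789), lies on the plus strand of chromosome 7 from 128129547 to 128150657. Levels were 1.24, 1.34, 1.92, 1.06 and 1.66 CPM in A1 to A5, and 3.06, 52.0, 5.13, 3.38 and 3.07 CPM in O1 to O5. The PDX livers held 6.23, 12.2, 9.02, 7.15 and 6.33 CPM in P1 to P5. Again O2 was the highest mouse, 4.28 times the next, and every PDX mouse was above each of the other 4 Old mice. The mean of Old was 9.24-fold that of Adult, or 2.67-fold without O2 and O5, while the mean of PDX was 5.67-fold that of Adult.

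Cd9 and Cd63 encode tetraspanins, small membrane proteins of the cell surface and of late endosomes and exosomes. Cd9 (ENSMUSG00000030342, minus strand of chromosome 6 from 125460266 to 125494791) was at 22.7, 18.1, 17.6, 13.8 and 17.3 CPM in A1 to A5. It was at 74.4, 30.3, 22.1, 25.5 and 42.4 CPM in O1 to O5 and at 43.1, 30.6, 23.0, 32.5 and 27.5 CPM in P1 to P5. The Old and Adult groups overlapped, O3 lying just below A1, and the highest mouse was O1 rather than O2 or O5. Its group means differed least among the 9 genes, with an Old mean 2.17-fold and a PDX mean 1.75-fold that of Adult. The Old ratio was 2.27-fold without O2 and O5.

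Cd63 (ENSMUSG00000025351, plus strand of chromosome 10 from 128900989 to 128912822) was at 3.57, 2.43, 3.97, 3.66 and 3.62 CPM in A1 to A5. The Old values were 9.47, 20.7, 5.54, 6.43 and 48.0 CPM in O1 to O5, and the PDX values were 8.01, 7.39, 11.5, 6.04 and 7.05 CPM in P1 to P5. O5 and O2 were the highest of the 15 mice, whereas O1, O3 and O4 lay within or near the PDX range. The mean of Old fell from 5.23-fold to 2.07-fold that of Adult when O2 and O5 were left out, and the mean of PDX was 2.32-fold.

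Lgals3 encodes galectin-3, a secreted lectin of activated macrophages (ENSMUSG00000050335, plus strand of chromosome 14 from 47367751 to 47386160). It was at 7.84, 5.04, 6.88, 5.53 and 7.15 CPM in A1 to A5 and at 9.68, 58.2, 14.5, 8.21 and 23.8 CPM in O1 to O5. The PDX livers held 22.7, 19.5, 28.4, 19.4 and 13.3 CPM in P1 to P5. O4 was barely above A1, whereas the 5 PDX mice stood clear of the Adult range. Without O2 and O5 the mean of Old was 1.66-fold that of Adult, against 3.53-fold with them and 3.19-fold for PDX.

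Mmp12, the macrophage metalloelastase that cleaves elastin (ENSMUSG00000049723, plus strand of chromosome 9 from 7344381 to 7369499), was a low-count gene. In A1 to A5 it was at 0.225, 0.176, 0.684, 0.512 and 0.344 CPM, from 5 to 15 counts per library. In O1 to O5 it was at 3.31, 1.93, 6.56, 3.79 and 9.13 CPM, and in P1 to P5 at 12.0, 1.85, 8.52, 2.00 and 2.51 CPM. The older mice were all above the Adult mice, with P1 and O5 highest and P2, O2 and P4 lowest. Mmp12 hardly depended on O2 and O5, since the mean of Old was 12.7-fold that of Adult with them and 11.7-fold without.

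Fabp5 and Lpl handle fatty acids. Fabp5, a cytosolic fatty acid carrier (ENSMUSG00000027533, plus strand of chromosome 3 from 10012548 to 10016607), was at 16.8, 28.2, 13.0, 9.00 and 20.0 CPM in A1 to A5. It was at 35.0, 67.9, 57.5, 37.3 and 5.56 CPM in O1 to O5 and at 65.7, 146, 40.7, 80.7 and 40.3 CPM in P1 to P5. O5, the highest mouse for Gpnmb and Cd63, was the lowest of all 15 mice for Fabp5, and P2 was the highest. The mean of Old was 2.33-fold that of Adult, or 2.48-fold without O2 and O5, and the mean of PDX was 4.28-fold. A processed pseudogene of Fabp5 is annotated on another chromosome, and read pairs that align to both would not have been counted as unique.

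Lpl encodes lipoprotein lipase, which frees fatty acids from circulating triglyceride (ENSMUSG00000015568, plus strand of chromosome 8 from 68880491 to 68907448). It was at 21.1, 15.6, 20.3, 20.5 and 22.0 CPM in A1 to A5 and at 21.0, 198, 30.6, 35.6 and 51.5 CPM in O1 to O5. In P1 to P5 the values were 45.0, 42.3, 76.1, 66.0 and 32.0 CPM. O1 lay inside the Adult range and O2 was 2.6 times the next highest mouse, P3. The mean of Old was 3.38-fold that of Adult with all 5 mice, and 1.46-fold without O2 and O5.

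**Figure D2:**
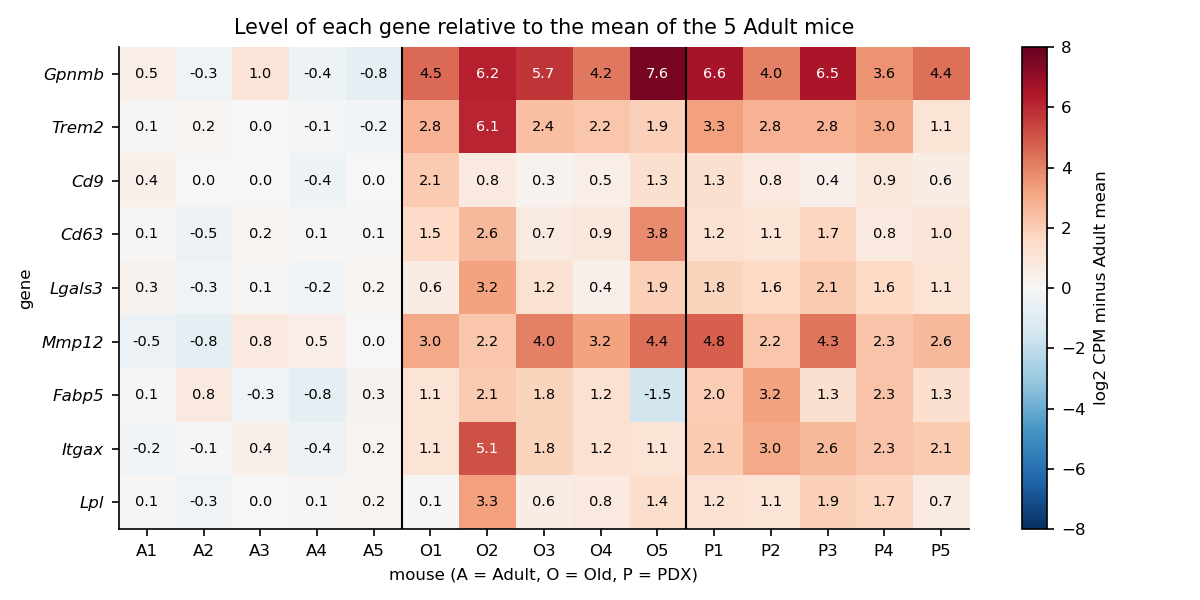
Log2 CPM of each gene in each mouse minus the mean of the 5 Adult mice, with red above and blue below that mean. O2 is darkest for Trem2 and Itgax, O5 for Gpnmb and Cd63, and the Fabp5 cell of O5 is the blue one among the older mice.

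The mouse with the highest level was O2 for 4 of the 9 genes (Trem2, Lgals3, Itgax and Lpl) and O5 for 2 genes (Gpnmb and Cd63). It was O1 for Cd9, P1 for Mmp12 and P2 for Fabp5. The heat map of log2 CPM shows that the mice that stood apart did so for different members: O2 was next to lowest of the 10 older mice for Mmp12, and O5 was next to lowest for Trem2 and lowest for Fabp5.

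Levels were compared between genes only after division by length. CPM per kb of summed exons, with counted pairs as the total and no TMM factor, were highest for Cd9 in the Adult group, at 8.60 ± 1.5 (SD, n = 5), followed by Fabp5 at 4.77 ± 1.93, Lgals3 at 3.43 ± 0.634 and Lpl at 1.87 ± 0.257. Cd63 (0.922 ± 0.166), Itgax (0.295 ± 0.0691) and Trem2 (0.180 ± 0.0149) came next, and Mmp12 (0.0529 ± 0.0287) and Gpnmb (0.0525 ± 0.0329) were the lowest. The SDs of Fabp5 and Lgals3 overlapped, as did those of Mmp12 and Gpnmb, so these neighbours were not separated. The order of Lgals3 and Lpl was not settled either, since Lpl was above Lgals3 when the longest transcript served as length. In the Old group Gpnmb stood at 4.43 ± 4.35, beside Cd63 at 5.30 ± 5.24 and Trem2 at 4.37 ± 7.61. In the PDX group Fabp5 was highest at 20.2 ± 10.8 and Cd9 next at 15.0 ± 3.30, whose SDs overlapped, and Gpnmb stood at 2.76 ± 2.55. Mmp12 was the lowest in both older groups, at 0.700 ± 0.415 and 0.744 ± 0.647.

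Between Old and Adult, 8 of the 9 genes had an adjusted p under 0.05 in the quasi-likelihood test of edgeR, all higher, against 6.78% of all genes tested and 4.71% that were higher. All Old mice were above all Adult mice for 6 of the 9, against 3.65% of all genes. The members were selected on this contrast, so these counts are a description and nothing is read from them. The log2 fold changes were 6.28 for Gpnmb (standard error 0.91), 4.26 for Trem2 (0.82), 3.69 for Mmp12 (0.65), 3.21 for Itgax (0.76) and 2.39 for Cd63 (0.50). They were 1.82 for Lgals3 (0.44), 1.76 for Lpl (0.50), 1.22 for Fabp5 (0.52) and 1.12 for Cd9 (0.29). Lpl, at an adjusted p of 0.0471, lay just inside the threshold, and Fabp5, at 0.141, was the member outside it. In a fit of the Old and Adult mice alone, 2 of the 9 were called (Gpnmb and Mmp12), against 0.698% of all genes. Without O2 and O5, 6 of the 9 were called higher, against 4.85% of all genes, and the call was lost for Lgals3 (log2 fold change 0.74) and for Lpl (0.56).

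**Figure D3:**
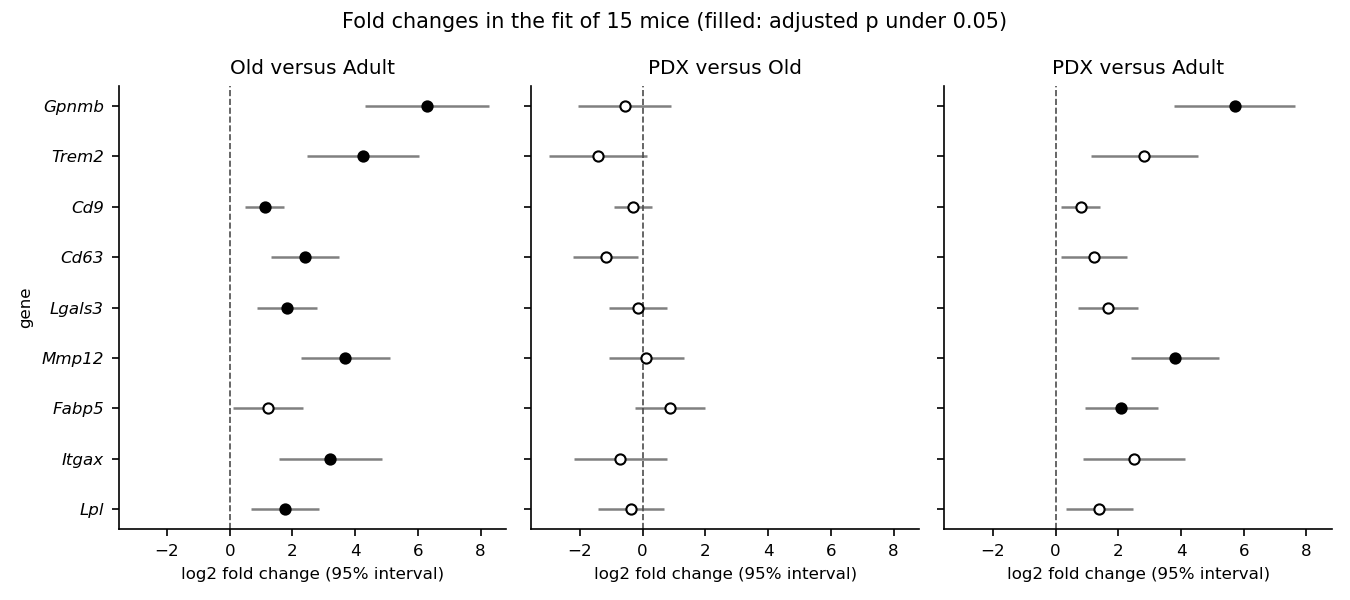
Log2 fold changes of the 9 genes with 95% intervals in the fit of 15 mice, for Old against Adult, PDX against Old and PDX against Adult. Filled points have an adjusted p under 0.05. All PDX-against-Old points are open and lie on both sides of 0, and Gpnmb, Mmp12 and Fabp5 are filled for PDX against Adult.

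Whether treatment with PDX altered the members in the older mice was asked by comparing PDX with Old mice, which also served in the contrast that chose them. None of the 9 genes was called by edgeR at an adjusted p of 0.05, where 0% of all genes were, or at 0.25, the threshold the study used for this comparison, where again 0% were. DESeq2 and limma also called none of the 9. Before adjustment, Cd63 alone passed 0.05 in edgeR (adjusted p = 0.793), on the lower side, as did 4.23% of all genes. The Cd63 log2 fold change was -1.17 (95% interval -2.21 to -0.14) with all mice and 0.17 without O2 and O5. The lower side therefore rested on those mice.

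The intervals between PDX and Old were wide for the other members, so this comparison does not show that the groups were alike. On the log2 scale, the difference was -0.57 for Gpnmb (95% interval -2.05 to 0.90), -1.43 for Trem2 (-2.98 to 0.12) and -0.71 for Itgax (-2.21 to 0.79). It was -0.37 for Lpl (-1.42 to 0.68), -0.31 for Cd9 (-0.93 to 0.30) and -0.15 for Lgals3 (-1.07 to 0.77). Mmp12 and Fabp5 were on the other side of 0, at 0.12 (-1.08 to 1.33) and 0.88 (-0.24 to 1.99). Leaving out O2 and O5 turned the sign of Gpnmb (to 0.67), Trem2 (to 0.25), Itgax (to 1.09), Lgals3 (to 0.95) and Lpl (to 0.85), and none of these was called at an adjusted p of 0.05 or 0.25, the lowest in edgeR's test being 0.293. In all 9 genes the PDX and Old groups overlapped.

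PDX livers were then compared with Adult livers, a contrast that shares its Adult mice with the one that chose the members. Every PDX mouse was above every Adult mouse for 9 of the 9 genes, which held for 10.5% of all genes tested. Of the 9, 3 were called by edgeR, all higher, against 2.66% of all genes and 1.76% that were higher. Nothing is read from these counts beside the shares over all genes, since the Adult mice served in choosing the members and Gpnmb and Mmp12 passed the filter on low counts only through the older groups. On the log2 scale Gpnmb was higher by 5.71 ± 0.89 (standard error; adjusted p = 0.00349), Mmp12 by 3.81 ± 0.65 (adjusted p = 0.00640) and Fabp5 by 2.10 ± 0.53 (adjusted p = 0.0488). Those 3 genes encode the lysosomal glycoprotein, the elastase and the fatty acid carrier. The other 6 missed the threshold, with log2 fold changes of 2.82 for Trem2 (adjusted p = 0.0673), 2.50 for Itgax (0.0826), 1.67 for Lgals3 (0.0559), 1.39 for Lpl (0.130), 1.21 for Cd63 (0.171) and 0.81 for Cd9 (0.130).

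The number of members called between PDX and Adult differed between fits. In a fit of the PDX and Adult mice alone, 9 of the 9 were called, against 29.6% of all genes, and without O2 and O5 in the shared fit 9 of the 9 were called, against 24.6%. The number was 7 without O2 alone, where 1766 of 15978 genes were called, and 7 without O5 alone, where 1744 of 16027 were. It was 5 without P5, where 585 of 16058 genes were called. Without any 1 of the Adult mice it was 2, where 166 to 206 genes were called. Without O2 and O5 the log2 fold changes hardly moved, for example to 2.84 for Trem2 and 2.52 for Itgax. That fit leaves out no PDX or Adult mouse, so it could hardly move them. When 1 mouse of any group was left out, they ranged from 5.25 to 6.04 for Gpnmb and from 1.70 to 2.34 for Fabp5. Fabp5 lost its call when any of A1 to A5, O1, O3, O4 or P1 to P4 was left out, with an adjusted p between 0.0501 and 0.133 in those fits.

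**Figure D4:**
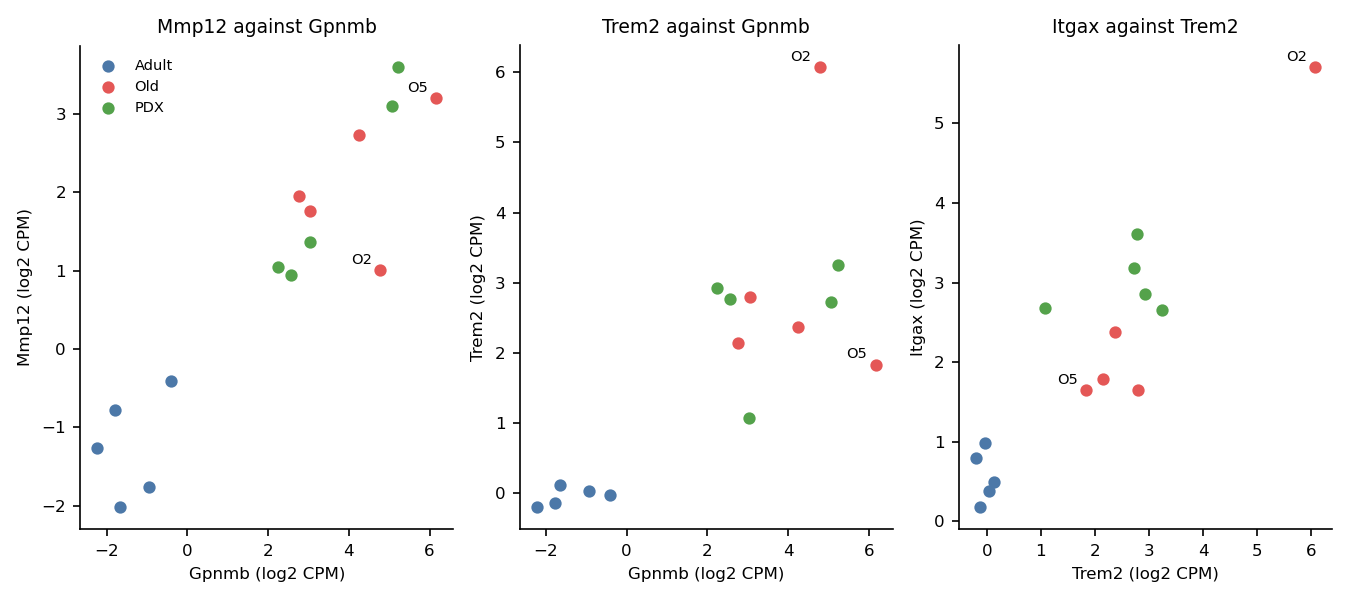
Log2 CPM of Mmp12 against Gpnmb, Trem2 against Gpnmb and Itgax against Trem2, 1 point per mouse, with colours for the groups and O2 and O5 named. Mmp12 and Gpnmb rise together among the older mice apart from O2, Trem2 and Gpnmb do not, and O2 sets the upper end of Itgax against Trem2.

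Across the 10 older mice, the members did not vary as 1 block. The points of such a correlation share a library and its depth, and the values are descriptions. Gpnmb was closest to Mmp12 (Pearson r of log2 CPM 0.757, n = 10 mice) and Cd63 (0.726), followed by Lgals3 (0.564) and Lpl (0.360). Its r was 0.195 with Trem2, 0.0756 with Itgax, 0.0364 with Cd9 and -0.569 with Fabp5. Without O2 and O5, r with Mmp12 was 0.959 over 8 mice, and with Cd63 it was 0.449. The plot of gene pairs shows O2 as the older mouse with high Gpnmb and low Mmp12.

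Trem2, Itgax, Lpl and Lgals3 were closer to each other than to Gpnmb. Over the same 10 mice r was 0.906 between Lgals3 and Lpl, 0.832 between Itgax and Lpl, 0.811 between Trem2 and Itgax and 0.806 between Lgals3 and Itgax. Without O2 and O5, Lgals3 kept an r of 0.829 with Itgax and 0.792 with Lpl, whereas that of Trem2 with Itgax was 0.154 and with Lpl 0.338. Without O2 alone, r of Trem2 was 0.282 with Itgax and 0.243 with Lpl over 9 mice, and without O5 alone it was 0.796 and 0.805, so the higher values for Trem2 needed O2. Fabp5 was closest to Itgax, at 0.525 with all 10 mice and 0.721 over the 8.

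Among 13377 genes with enough signal, those most like Gpnmb over the 10 older mice were Hand2 (r = 0.946), Clip3 (0.939), Kirrel (0.928), Rapgef3 (0.915) and Tbx20 (0.906), none of them a member. Mmp12 ranked 113 and Cd63 ranked 189 on that measure. That search held only mice labelled 22 months old, so any likeness in it was within age. Hand2, which is also in the stellate cell list used below, was at similar means in the 3 groups, 9.09, 9.47 and 8.00 CPM in Adult, Old and PDX. Over all 15 mice, where the gap between ages enters, the order began with Saa3 (0.954), Ly6d (0.945), S100a6 (0.938), Esm1 (0.936) and Sult1e1 (0.933), and Mmp12 (0.938) ranked 4 when members were counted. Saa3, an acute-phase protein, was at a mean of 3.56 CPM in Adult, 27.6 in Old and 22.7 in PDX livers.

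Other genes of the lipid-associated pattern were measured in a list of 24 without the members, whose own counts were fixed by their choice and are not set against it. Of the 24, 23 were tested and 3 were higher in Old than in Adult livers, against 4.71% of all genes, with a median log2 fold change of 0.63 against 0.07 over all genes. Those were Capg, an actin-capping protein (3.03, adjusted p = 0.0300), Emp1, a membrane protein (1.64, adjusted p = 0.0249) and Ms4a7, a macrophage membrane protein (2.75, adjusted p = 0.0470), all from edgeR. Spp1, which encodes osteopontin and defines the list, had a log2 fold change of 0.46 (adjusted p = 0.114), and Apoe, the apolipoprotein made mainly by hepatocytes, one of -0.54 (adjusted p = 0.152). Between PDX and Adult, 2 were higher in the same test, Spp1 (0.78, adjusted p = 0.0333) and Emp1 (1.58, adjusted p = 0.0340), against 1.76% of all genes. With O2 and O5 left out, Capg was called between Old and Adult (1.39, adjusted p = 0.0307), whereas Emp1 (1.13, adjusted p = 0.0607) and Ms4a7 (1.53, adjusted p = 0.0607) did not. In that fit 4 of the 23 were higher and 1 was lower, where 4.85% of all genes were called higher.

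Genes that act with TREM2 were measured beside it. Of 16 tested, 3 were higher in Old livers, against 4.71% of all genes, with a median log2 fold change of 1.64. They were Syk, the kinase that TREM2 engages (log2 fold change 2.36, edgeR adjusted p = 0.0332), Card9, an adaptor downstream of it (2.03, adjusted p = 0.0282) and Inpp5d, the phosphatase that restrains it (1.72, adjusted p = 0.0419). The adaptor Tyrobp had a log2 fold change of 1.31 (adjusted p = 0.0871). Between PDX and Adult none of the 16 was called, and their median log2 fold change was 1.27 against -0.01 over all genes. The summed level of the list was 1090 CPM in O2 and at most 378 CPM in the other Old mice. The median between Old and Adult was 0.59 without O2 and O5. Card9 alone was called (0.99, edgeR adjusted p = 0.0454), where 4.85% of all genes were called higher. In the same edgeR test Syk had 1.41 (adjusted p = 0.0575) and Inpp5d 0.74 (adjusted p = 0.0720).

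Lysosomal genes and their regulators were measured in a list of 22, all tested, of which 3 were higher in Old livers, against 4.71% of all genes, with a median log2 fold change of 0.41. Ctss (1.81, adjusted p = 0.0480) and Ctsz (0.70, adjusted p = 0.0198) encode cathepsins and Grn (0.75, adjusted p = 0.0376) encodes progranulin, in edgeR's test. Mitf, a transcription factor known to drive Gpnmb, had a log2 fold change of 0.57 (adjusted p = 0.323), and Tfeb one of -0.04 (adjusted p = 0.927). Ctsz was the 1 gene called between PDX and Adult (0.71, adjusted p = 0.0196). In the fit without O2 and O5, Ctsz was called higher in Old livers (0.74, adjusted p = 0.0130), while Ctss had 0.62 (adjusted p = 0.137) and Grn 0.39 (adjusted p = 0.0782), all from edgeR. Of 16 tested genes of macrophage lipid handling, none was higher and 1 was lower in Old livers, Acsl1, which activates fatty acids (-1.08, adjusted p = 0.0264). Acsl1 was also lower in PDX than in Adult livers (-1.25, adjusted p = 0.0156), and it was called lower in Old livers without O2 and O5 (-0.78, adjusted p = 0.0382). The scavenger receptor Msr1 had 1.21 (adjusted p = 0.105) and the cholesterol exporter Abca1 0.52 (adjusted p = 0.209) between Old and Adult.

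Relatives of the integrin, galectin, tetraspanin and protease members formed a list of 21, of which 20 were tested and 7 were higher in Old livers, against 4.71% of all genes, with a median log2 fold change of 1.11. They included Itgam, the CD11b chain (3.60, edgeR adjusted p = 0.0170), its partner Itgb2 (2.02, adjusted p = 0.0429) and the protease inhibitors Timp1 (3.77, adjusted p = 0.0292) and Timp2 (0.95, adjusted p = 0.0287). Lgals3bp, the galectin-3 binding protein, had a log2 fold change of 0.15 (adjusted p = 0.714). None of the 20 was called between PDX and Adult, where their median log2 fold change was 0.68. Leaving out O2 and O5 brought the median between Old and Adult to 0.42, where 4.85% of all genes were called higher. Then 2 of the 7 were called, Itgam (1.67, edgeR adjusted p = 0.0218) and the tetraspanin gene Cd37. Itgb2 then had 0.81 (adjusted p = 0.0776), Timp1 1.40 (adjusted p = 0.202) and Timp2 0.56 (adjusted p = 0.0716).

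Between PDX and Adult the same fit without O2 and O5 called many more genes of these lists, as it did over all genes, where 14.4% were higher. Of the lipid-associated list 12 of 23 were higher, of the TREM2 list 14 of 16, of the lysosomal list 9 of 22, of the lipid handling list 3 of 16 and of the relatives 12 of 20. In the same order 2, 0, 2, 1 and 1 genes were lower, where 24.6% of all genes were called in either direction. Between PDX and Old, no gene of these 5 lists was called by edgeR, with or without O2 and O5.

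The summed markers of macrophages and of other leukocytes were highest in O2 and did not follow the members in every mouse. Single markers could differ from the sums. The macrophage gene Cd14 was at 128 CPM in O5 and 28.9 CPM in O2, and the monocyte gene Chil3 at 22.2 and 17.6 CPM. O5, the highest mouse for Gpnmb and Cd63, was at 393 CPM for the general macrophage genes, within the Adult range. Of that sum Cd14 made up 128 CPM, and the other genes summed to 266 CPM. Of the 2 defining genes, Adgre1 was at 10.2 CPM in O5, below the lowest Adult mouse (23.9 CPM). Csf1r was at 73.0 CPM in O5, inside the Adult range of 72.3 to 103 CPM. The 10 general macrophage genes summed to between 263 and 403 CPM in Adult, 393 and 3047 in Old and 572 and 1329 in PDX livers, with O2 at 3047 and the other Old mice at no more than 674. All 10 had a positive log2 fold change between Old and Adult (median 1.62), and 1, Cd14, was called, against 4.71% of all genes called higher. Their defining genes Csf1r and Adgre1 had 1.16 (edgeR adjusted p = 0.161) and 1.08 (adjusted p = 0.259). The 14 Kupffer cell genes, with Clec4f and Vsig4 first, summed to 860 to 1137, 734 to 4401 and 1241 to 2333 CPM, and none was called. O2 was again the highest for them and O5 the lowest.

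The sums of other leukocyte markers were highest in O2 too. Over all genes, 4.71% were called higher in Old and 1.76% in PDX livers, each against Adult. The 10 monocyte genes summed to 17.6 to 50.2 CPM in Adult, 27.8 to 203 in Old and 37.9 to 84.0 in PDX livers, with 4 called higher in Old and 1 in PDX (Chil3). The 10 dendritic cell genes, of which 9 were tested and none called, summed to 55.6 to 71.1, 29.9 to 1205 and 92.6 to 217 CPM. H2-Aa, a class II antigen gene that B cells and macrophages also use, made up 1082 of the 1205 CPM in O2, and the others summed to 124 CPM. The 12 neutrophil genes summed to 2.90 to 7.66, 21.3 to 274 and 44.7 to 204 CPM, and of the 10 tested 9 were called higher in Old and 3 in PDX (Prtn3, Mpo and Elane). B cell genes, 8 in number, reached 115 CPM in O2, 98.1 CPM in another Old mouse and 7.22 to 11.5 CPM in Adult livers, with 4 called higher and Cr2 lower in Old. The 12 T and NK cell genes reached 201 CPM in O2, of which Cd4 made up 116 CPM, and 6.00 to 12.2 CPM in Adult livers, and of the 11 tested none was called. H2-Aa and Cd4 were named after their values were seen.

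The 10 stellate cell genes were high in both O5 and O2, at 502 and 443 CPM. They were at 220 to 232 CPM in Adult livers, at most 271 CPM in the other Old mice and 185 to 365 CPM in PDX livers. Of the 10, 3 were called higher in Old (Acta2, Col1a1 and Des), against 4.71% of all genes. The 9 cholangiocyte genes summed to 22.8 to 30.0 CPM in Adult livers and to 71.6 CPM in O5, and of the 6 tested none was called. The 8 sinusoidal endothelial genes were lowest in O5, at 204 against 389 to 434 CPM in Adult livers, with none called. The 7 hepatocyte genes were lowest in O5 and O2, at 74417 and 79799 CPM against 133466 to 144571 in Adult livers, with 1 called lower in Old (Cyp2e1). When O2 and O5 were left out, none of the general macrophage, Kupffer, T and NK cell, cholangiocyte or endothelial genes was called higher in Old livers by edgeR. Those called higher were 2 of 10 monocyte, 1 of 10 dendritic, 3 of 10 neutrophil and 3 of 8 B cell genes. They also included 1 of 10 stellate and 1 of 7 hepatocyte genes, against 4.85% of all genes. In that fit 10 of the 10 general macrophage genes and 9 of the 14 Kupffer cell genes were higher in PDX than in Adult livers, against 14.4% of all genes. The Kupffer cell gene Cd163, named after its values were seen, was called lower there. Against Adult its log2 fold change was -1.58 in PDX (edgeR adjusted p = 0.00310) and -2.29 in Old livers (adjusted p = 0.00568). Between PDX and Old no marker was called by edgeR, with or without O2 and O5, and no defining marker of any list was at 0 in any library. The part of these shifts in the members' levels was not tested.

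**Figure D5:**
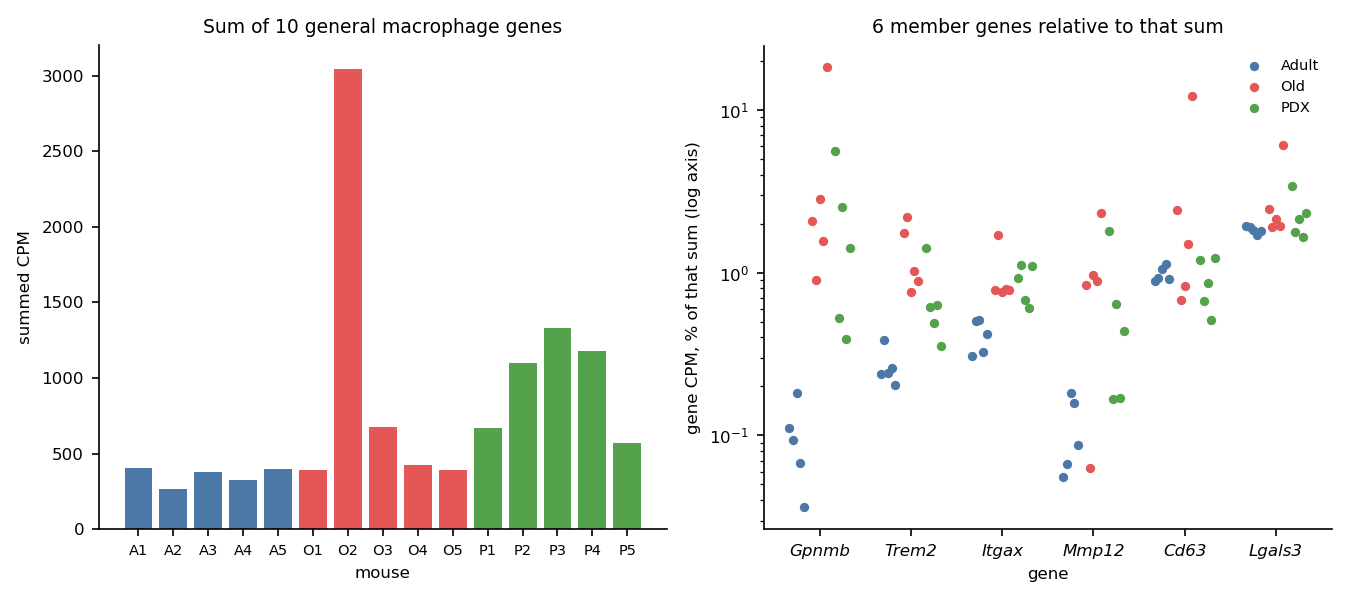
Left, the summed CPM of 10 general macrophage genes in each mouse, with O2 at 3047. Right, the CPM of 6 members as a percent of that sum (log axis), 1 point per mouse. Gpnmb, Trem2 and Itgax of the Old mice all lie above the Adult points, whereas Cd63, Lgals3 and Mmp12 overlap them.

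The members were also expressed as a percent of the summed CPM of the 10 general macrophage genes, a scale added after the values were seen. On it Gpnmb was at 0.0982% ± 0.0547 in Adult, 5.12% ± 7.36 in Old and 2.09% ± 2.12 in PDX livers (SD, n = 5 each), and all older mice remained above all Adult mice. The same held for Itgax, at 0.414% ± 0.0963, 0.964% ± 0.416 and 0.886% ± 0.235. Trem2 was at 0.266% ± 0.0711, 1.32% ± 0.623 and 0.701% ± 0.410, with 5 of 5 Old and 4 of 5 PDX mice above the Adult range. Mmp12 had 4 of 5 Old and 3 of 5 PDX mice above it, and O2, at 0.0634%, was inside the Adult range.

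On the same scale the other members overlapped the Adult range. Of 5 Old mice, 3 were above it for Cd63, Lgals3 and Lpl, 2 for Cd9 and 0 for Fabp5. Of 5 PDX mice, 3 were above it for Lgals3, 2 for Cd63, 1 for Fabp5 and Lpl and 0 for Cd9. O5 held the highest percent for Gpnmb, at 18.2%, and for Cd63, at 12.2%, whereas O2 was the lowest Old mouse for Gpnmb, at 0.896%. O2 was thus high in Trem2 and Itgax on this scale as well, at 2.20% and 1.71%. Its percent for Gpnmb was still above each Adult mouse and above P2 (0.530%) and P4 (0.393%), with a macrophage sum of 3047 CPM as divisor. The divisor of O5 was 393 CPM, of which Cd14 made up 128 CPM. The counts depended on the gene used as the scale. Relative to Csf1r alone, 5 of 5 Old and 5 of 5 PDX mice were above the Adult range for Gpnmb, Trem2, Itgax and Lgals3, 4 and 5 for Mmp12, and 4 and 4 for Lpl. They were 3 and 3 for Cd63, 3 and 2 for Fabp5 and 3 and 1 for Cd9. Relative to Adgre1 alone, 5 of 5 Old and 5 of 5 PDX mice were above it for Gpnmb, 5 and 4 for Trem2 and Itgax, 5 and 3 for Lgals3 and 4 and 4 for Mmp12. They were 3 and 2 for Cd63, 3 and 1 for Cd9 and Lpl and 0 and 2 for Fabp5.

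Frailty was scored in the labels as an index, which was not used to choose the members. The labels also gave a tally of positive frailty criteria and a treadmill distance per mouse, and these were not set against the members. The index was 0 in all Adult mice, 0.17, 0.11, 0.19, 0.33 and 0.56 in O1 to O5 and 0.06, 0.19, 0.22, 0.26 and 0.20 in P1 to P5. Over the 10 older mice, none of the 9 genes was related to it after adjustment over the 9 relations of each kind. The strongest Pearson correlation was that of Fabp5 (r = -0.793, permutation p = 0.0260, adjusted p = 0.234, Spearman rho -0.407, permutation p = 0.239, adjusted p = 0.807). It rested on O5 and O4, the mice with the 2 highest indices, since r was -0.0260 without them. The strongest rank correlation was that of Trem2 (rho = -0.675, permutation p = 0.0374, adjusted p = 0.337, r = -0.479, permutation p = 0.143, adjusted p = 0.322), and its r was -0.496 without O4 and O5. O2, the mouse with the highest Trem2 level, had the next to lowest index of the 10 older mice. It also had the shortest treadmill distance of all the mice. In the paper O2 and O5 appear to lie at the far end of the frailty range. The relation of Trem2 to the index is therefore not read as a relation to frailty in general.

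For Gpnmb r was 0.213 (permutation p = 0.591, adjusted p = 0.809) and rho was -0.164 (permutation p = 0.649, adjusted p = 0.807), and r was -0.629 without O4 and O5. For Cd63 r was 0.549 (permutation p = 0.115, adjusted p = 0.322) and rho was -0.0912 (permutation p = 0.807, adjusted p = 0.807), and r was -0.431 without those mice. The 5 remaining genes had r between -0.501 and 0.198 and rho between -0.255 and 0.128, with adjusted p of at least 0.322. Without O4 and O5 their r ran from -0.364 to -0.168. Groups of 5 mice are too small for a correlation within Old or within PDX.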

How the data were processed

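The authors aligned 50-base read pairs with STAR (version 2.6.0c) to mm10 and made the deposited counts of unique proper pairs per non-mitochondrial gene, on the same strand, with featureCounts (Subread 1.6.2, Ensembl 100), without normalization. They also deposited log2-scale values from the variance stabilizing transformation of DESeq2 (1.23.10). Of 55450 gene IDs, 55104 received a symbol from GENCODE M21 (GRCm38, which mm10 names), the source of coordinates and lengths.

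Counts were fitted with edgeR (4.0.16) in R 4.3.3 by quasi-likelihood, with the 15 mice in 1 fit and a mean per group, after filterByExpr by group (minimum count 10, minimum total 15) and TMM scaling. Adjusted p-values are from edgeR with Benjamini-Hochberg adjustment over 15808 genes unless another tool is named, tests are two-sided, the threshold was 0.05, log2 CPM used a prior count of 2, and 95% intervals used 12 residual degrees of freedom. The script was tested on simulated data. Alternatives used DESeq2 (1.42.0), limma (3.58.1) on the deposited log2 values, other normalization, filter and samples. Frailty relations used permutation tests (100000 resamples, seed 1) in Python 3.11.15 with scipy 1.17.1. Depth was 22424383 to 36070835 counted pairs per mouse, and p-values measure the spread between single mice.

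Members and gene lists were chosen with earlier results of these data known. The scales relative to macrophage genes, and the lists and gene pairs without O2 and O5, were added after the values were seen. Named genes were the 9 members, the first 2 genes of each list with up to 3 called genes of smallest p between Old and Adult, and the 5 genes most like Gpnmb over 10 and over 15 mice.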

Additional observations from a re-analysis of the deposited data

Results flagged for a closer look

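Within groups of 5 mice, 6 of the 27 combinations of member and group held a mouse whose gap to its nearest neighbour exceeded 0.710 of the group's range in CPM. That limit gives about 1 in 20 for independent, normally distributed values. CPM need not be so distributed and the same mouse can enter several combinations, so the 6 are not set against that rate. O2 was the highest Old mouse for Trem2, at 66.9 CPM, and for Itgax, at 52.0 CPM, and O5 was the lowest Old mouse for Fabp5, at 5.56 CPM. P5 was the lowest PDX mouse for Trem2, at 2.03 CPM. A2 was the lowest Adult mouse for Cd63, at 2.43 CPM, and for Lpl, at 15.6 CPM. The Itgax gap was 0.820 of the range and that of Trem2 in the Old group 0.773.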

How the results depend on the processing

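The direction of all 9 members between Old and Adult, and between PDX and Adult, was the same in each of the 22 alternatives. The number of members called between Old and Adult, 8 in the fit of all mice, was 2 in the fit of these groups alone, 4 with limma on the deposited values and between 3 and 9 when 1 mouse was left out, lowest without A2, A3, A4 or A5. Between PDX and Adult it was 9 in the fit of these groups alone, 9 without O2 and O5, 5 with DESeq2 and between 2 and 7 when 1 mouse was left out, with 7 without O2, 7 without O5 and 5 without P5, against 3 with all mice. The cause was not tested. Over all genes, 1072 were called between Old and Adult, against 105 in the fit of the 2 groups, 2524 with DESeq2, 651 with limma, 665 without a filter and 156 to 2178 when 1 mouse was left out. The 420 genes called between PDX and Adult became 4529, 1383, 402, 332 and 166 to 1766 in the same settings, and 4004 without O2 and O5.

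The replicate numbers did not pair the mice, since same-numbered mice had mean correlations of -0.168, 0.0920 and 0.0310 in the 3 comparisons. With the number as a replicate block, 4 members were called between Old and Adult and 3 between PDX and Adult, with 237 and 316 genes in all, and the log2 fold changes between PDX and Old turned to 0.10 for Lgals3, -0.034 for Mmp12 and 0.22 for Itgax.

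Between PDX and Old, where no member was called in any alternative, the other sign changes were to 0.18 for Lgals3, -0.089 for Mmp12, 0.29 for Itgax and 0.067 for Lpl with limma. Without O2 and O5 they were to 0.67 for Gpnmb, 0.25 for Trem2, 0.17 for Cd63, 0.95 for Lgals3, 1.09 for Itgax and 0.85 for Lpl. Leaving out 1 mouse gave ranges of -1.03 to 0.22 for Gpnmb (above 0 without O5), -1.69 to 0.38 for Trem2, -0.36 to 0.56 for Lgals3, -0.96 to 1.15 for Itgax and -0.59 to 0.59 for Lpl (all above 0 without O2), -0.46 to 0.049 for Cd9 (above 0 without O1) and -0.41 to 0.47 for Mmp12 (below 0 without O1, O2, P1 or P3). The frailty index r of Cd63 turned to -0.288 without O2 and O5 and ranged from -0.474 (without O5) to 0.754 when 1 mouse was left out. Depth limits Gpnmb and Mmp12 in Adult livers, at 5 to 16 counts. With the longest transcript as length, Cd9 was the highest member in each group. Lpl then stood above Lgals3 in the Adult and Old groups and above Fabp5 in the Old group. Gpnmb stood above Mmp12 in the Adult group and above Cd63 in the Old group.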
